A study of Mus musculus with 4 samples.

Results

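The immediate early genes described here are 10 genes of the AP-1 and Egr groups and their companions: Fosb, Jun, Junb, Jund, Egr1, Egr2, Egr3, Atf3, Ier2 and Dusp1. They were listed by gene symbol, and all 10 have an entry among the 22026 genes listed in every library. RNA-seq was done on 4 libraries of mouse bone marrow derived macrophages, 2 from wild-type controls (WT) and 2 from mice with the genotype Rbpj f/f;LysM cre (RBP-J KO), all on the C57BL/6 strain. In this genotype, Cre driven from the lysozyme M gene removes the floxed Rbpj in myeloid cells. Whether the controls carried Cre or a floxed allele is not stated in the sources used here. In both groups marrow came from mice aged 8 weeks and was grown for 3 days in CMG14-12 supernatant, a source of M-CSF (the cytokine that drives macrophage growth), and no further stimulus is named. The comparison asks which RNA levels depend on RBP-J, a DNA-binding protein by which Notch receptors control transcription.

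Immediate early genes are switched on soon after a growth factor, stress or microbial signal, by transcription factors already present in the cell, and their RNAs are short-lived. AP-1 is a dimer of basic leucine zipper proteins, in which the Jun proteins (Jun, Junb, Jund) pair with each other, with Fos proteins such as Fosb or with ATF proteins such as Atf3. Egr proteins are zinc finger factors induced by the same signals, and Dusp1 is a phosphatase that inactivates the MAP kinases through which many of these genes are induced. Macrophages induce many genes of this set, though not all alike, in response to M-CSF and to Toll-like receptor ligands.

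Levels are in FPKM (fragment counts corrected for the length of the transcript and the size of the library), and differences are on the log2(FPKM + 1) scale, which understates the change of low genes. The unit is that of the quantifier named by the submitters and is not written in the tables, which sum to between 2125327 and 2389348 per library, so levels are best read relative to each other. Rbpj, the deleted gene, measured 355 and 573 FPKM for WT replicates 1 and 2, and 51.45 and 77 FPKM for the same replicates of RBP-J KO, so that both RBP-J KO libraries were lower. The libraries also divided by replicate number. The replicate 1 tables are per gene and the replicate 2 tables per transcript. The Y-linked gene Ddx3y measured 193 FPKM (WT) and 174 FPKM (RBP-J KO) among the replicate 1 libraries and was listed at 0 for replicate 2. The reverse held for Xist, the RNA of the inactive X, listed at 0 for replicate 1 and measured at 268 FPKM (WT) and 290 FPKM (RBP-J KO) for replicate 2. Macrophage markers were high in every library, with Csf1r, the M-CSF receptor, between 2287 and 4705 FPKM and Cd68, a lysosomal membrane protein, between 5173 and 6473 FPKM. Of 9 measured macrophage markers, 3 were higher and 3 lower in RBP-J KO in both pairs. The 2 that were lower by at least 1.5-fold in both were Cd14, a lipopolysaccharide coreceptor, and Lyz2, the lysozyme M gene itself, named after their values were seen. Cd14 measured 1715 against 764 FPKM within pair 1 and 1570 against 800 FPKM within pair 2, and Lyz2 measured 218 against 94.3 FPKM and 192 against 115 FPKM. Neither passed the adjusted test (limma adjusted p = 0.528 for Cd14 and 0.619 for Lyz2), and their part in the levels of the immediate early genes was not tested. Summed levels of 11 neutrophil markers were 7088 FPKM (WT) and 8434 FPKM (RBP-J KO) for replicate 1, and 361 and 1173 FPKM for replicate 2. Markers of B cells summed to between 6.93 and 37.2 FPKM over the libraries (Cd79a, a B cell receptor chain, at most 6.24 FPKM), and those of stroma and endothelium to between 2.32 and 25.4 FPKM (Col1a1, a collagen of stroma, at most 2.47 FPKM). Other marker lists fixed for T and NK cells and for mast cells summed to at most 31.4 FPKM, and 5 osteoclast markers to between 57.9 and 384 FPKM. Listed at 0 in every library were Ebf1 among the B cell markers, Cd3d and Ncr1 of T and NK cells, and Calcr and Oscar of osteoclasts. For these reasons each difference is given inside pair 1 (the replicate 1 libraries) and pair 2 (the replicate 2 libraries), with WT before RBP-J KO. In bulk libraries, fewer cells of a type and less RNA per cell cannot be told apart.

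No difference between RBP-J KO and WT in the immediate early genes passed the test. Of the 10 genes, 8 reached the minimum mean of 1 FPKM, while Fosb and Egr3 fell short of it. With limma and Benjamini-Hochberg adjustment over 11851 genes, 0 of the 8 were past an adjusted p of 0.05, against a background of 0% (0 of 11851 genes). Rbpj itself, lower in RBP-J KO by 6.78-fold and 7.36-fold in the pairs, had a limma adjusted p of 0.457, so a missed threshold does not show that the 8 genes were unchanged. At an unadjusted p under 0.05 there were 0 of the 8, where the background was 4.42% of genes. None of the 8 was at least 1.5-fold apart in the same direction in both pairs (0 of 8), where 3.86% of all genes tested were that much higher without RBP-J and 3.63% that much lower. In pair 1 alone 2 of the 8 were at least 1.5-fold apart on the FPKM + 1 scale (background 22.4%), and in pair 2 alone 1 of the 8 (background 14.7%). Egr1 in pair 2 (0.59 against 1.17 FPKM) was 1.365-fold apart on that scale, but more than 1.5-fold apart without the added 1. Direction alone split evenly, with 2 genes higher in both pairs (Egr1, which turned in pair 1 under quantile normalization, and Dusp1), 2 lower in both (Jun and Egr2) and 4 with opposite signs. Over all genes tested, 25.1% were higher and 34.1% lower in both pairs.

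**Figure D1:**
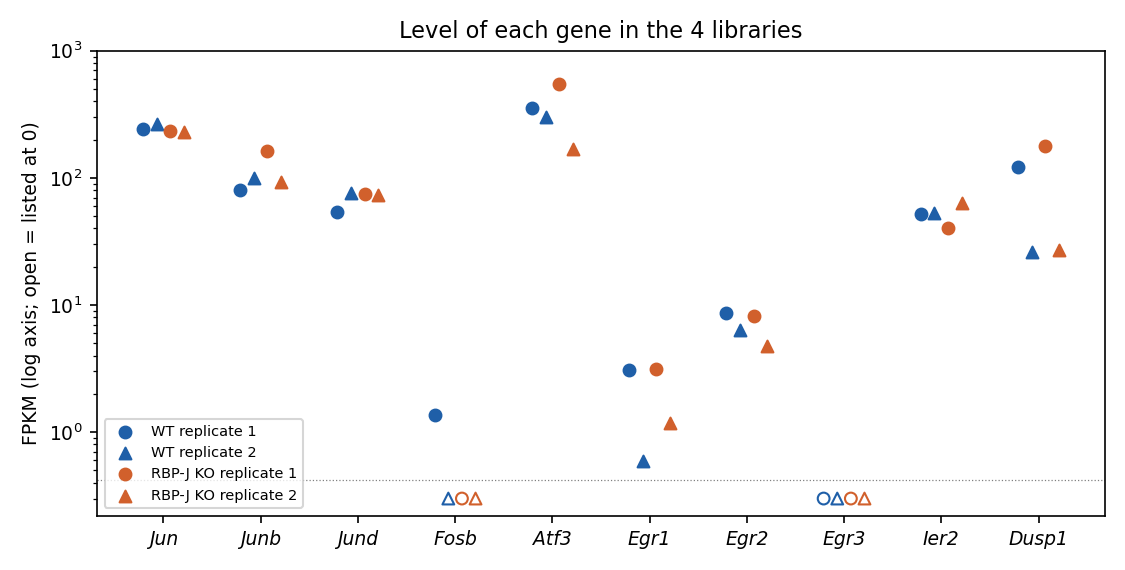
FPKM of the 10 genes in each library on a log axis, with WT in blue, RBP-J KO in orange, replicate 1 as circles and replicate 2 as triangles; open symbols mark values listed at 0. Atf3 and Jun lie highest, Egr1 and Egr2 below 9 FPKM, and the circles of Dusp1 stand well above its triangles in both genotypes.

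The bases in front of the transcription start are shown for Jun, Junb, Atf3 and Dusp1. RefSeq promoter entries matched 7 of the 10 genes, and these 4 are the matched genes with a single RefSeq transcript. Each sequence is the 250 bases before the start, 5′ to 3′ on the gene's own strand, from the RefSeq table of build GRCm38.p6, which is not the build the reads were aligned to. Capitals mark matches, on both strands, to the cAMP response element TGACGTCA, its relaxed form TGANNTCA (which includes it), the AP-1 element TGANTCA, the RBP-J core TGGGAA or the CArG box of serum response factor.
Jun (chr4:95052223-95052472, minus strand): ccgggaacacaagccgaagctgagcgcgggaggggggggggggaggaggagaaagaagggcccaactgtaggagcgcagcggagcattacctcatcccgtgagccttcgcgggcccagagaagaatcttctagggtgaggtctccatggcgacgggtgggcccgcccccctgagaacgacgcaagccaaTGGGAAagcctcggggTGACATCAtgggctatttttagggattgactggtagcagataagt
Junb (chr8:84978749-84978998, minus strand): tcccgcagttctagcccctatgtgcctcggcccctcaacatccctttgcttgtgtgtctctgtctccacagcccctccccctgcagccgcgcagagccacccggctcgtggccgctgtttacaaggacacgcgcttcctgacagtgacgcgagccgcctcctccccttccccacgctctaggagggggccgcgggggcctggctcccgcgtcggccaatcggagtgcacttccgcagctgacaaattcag
Atf3 (chr1:191183334-191183583, minus strand): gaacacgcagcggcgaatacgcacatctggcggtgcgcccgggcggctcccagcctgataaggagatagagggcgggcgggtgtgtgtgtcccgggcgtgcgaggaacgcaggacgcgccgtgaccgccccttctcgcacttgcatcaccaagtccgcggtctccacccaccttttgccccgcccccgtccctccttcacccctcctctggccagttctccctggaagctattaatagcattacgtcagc
Dusp1 (chr17:26508473-26508722, minus strand): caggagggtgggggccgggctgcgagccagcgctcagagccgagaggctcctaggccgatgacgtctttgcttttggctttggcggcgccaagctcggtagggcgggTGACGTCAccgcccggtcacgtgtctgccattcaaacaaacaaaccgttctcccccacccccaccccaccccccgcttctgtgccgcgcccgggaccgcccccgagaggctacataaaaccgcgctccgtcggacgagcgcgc

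In Jun, a TGANNTCA match began 45 bases before the start and a TGGGAA match 61 bases before it. Dusp1 held a full TGACGTCA beginning 143 bases before its start, and the windows of Junb and Atf3 held no match to the 5 motifs. Among 32851 promoter entries of the same length, TGACGTCA was found in 1.55%, TGANNTCA in 11.9%, TGANTCA in 6.75%, TGGGAA in 21.6% and the CArG box in 1.47%. Outside the printed windows, 4 of the 5 entries of Egr2, some of which overlap each other, held a CArG box, and the entry of Jund held both TGANNTCA and TGGGAA. These are matches of letters, and binding was not measured.

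Of the Jun genes, Jun had the steadiest level. It measured 242 and 263 FPKM for WT replicates 1 and 2, and 234 and 231 FPKM for the same replicates of RBP-J KO. Its WT values both lay above its RBP-J KO values, the only one of the 8 measured genes whose groups did not overlap, against 29.8% of all genes tested. The gap was small, with a mean of 252 ± 15.2 FPKM for WT and 233 ± 1.94 FPKM for RBP-J KO (SD, n = 2). Limma gave a log2 difference of -0.12 (SE 0.17, 95% interval -0.57 to 0.34, adjusted p = 0.999 with Benjamini-Hochberg). On the linear scale the interval runs from 0.672 to 1.27 times the WT level.

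Junb, a Jun protein that activates many promoters less strongly than Jun, was more than 1.5-fold apart in pair 1 alone. It measured 80.6 FPKM (WT) against 161 FPKM (RBP-J KO) in pair 1, a 1.99-fold higher value. In pair 2 the values were 101 FPKM (WT) against 92.4 FPKM (RBP-J KO), slightly lower. RBP-J KO replicate 1 thus stood above the 3 other libraries, and the groups overlapped. In pair 1 the difference was larger in size than that of 89.8% of genes tested, and in pair 2 than that of 33.8%. Over all libraries the log2 difference was 0.44 (SE 0.33, 95% interval -0.45 to 1.32, limma adjusted p = 0.999). Without RBP-J KO replicate 1 it was 0.04, and without RBP-J KO replicate 2 it was 0.84. Every marker list, that of macrophages included, also summed highest in RBP-J KO replicate 1. Dendritic cell markers, for example, summed to 138 FPKM there (95.1 FPKM of it from Itgax) against 25.1 to 42.4 FPKM in the other libraries. The part of such markers in the Junb values was not tested.

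Jund, the third Jun protein, measured 54.4 and 76.5 FPKM for WT replicates 1 and 2, and 74 and 73 FPKM for the same replicates of RBP-J KO. One WT library was low and the other level with both RBP-J KO libraries, so the groups overlapped. Its log2 difference was 0.19 (SE 0.24, limma adjusted p = 0.999), with 0.44 in pair 1 and -0.07 in pair 2. Without WT replicate 1 it was -0.06, the opposite direction.

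The makeup of the Jun family stood apart in RBP-J KO replicate 1. If the unit is FPKM, as taken here, values are scaled by length and the genes can be compared within a library. Jun supplied 64.2% of the summed Jun, Junb and Jund FPKM in WT replicate 1 and 59.8% in WT replicate 2. In RBP-J KO its share was 58.3% for replicate 2, but 49.9% for replicate 1. Junb supplied 34.4% in RBP-J KO replicate 1 and between 21.4% and 23.3% in the other libraries. The share of Jund stayed between 14.4% and 18.4%. The family sum was 376 against 469 FPKM within pair 1 and 440 against 397 FPKM within pair 2, so that its order turned between the pairs.

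**Figure D2:**
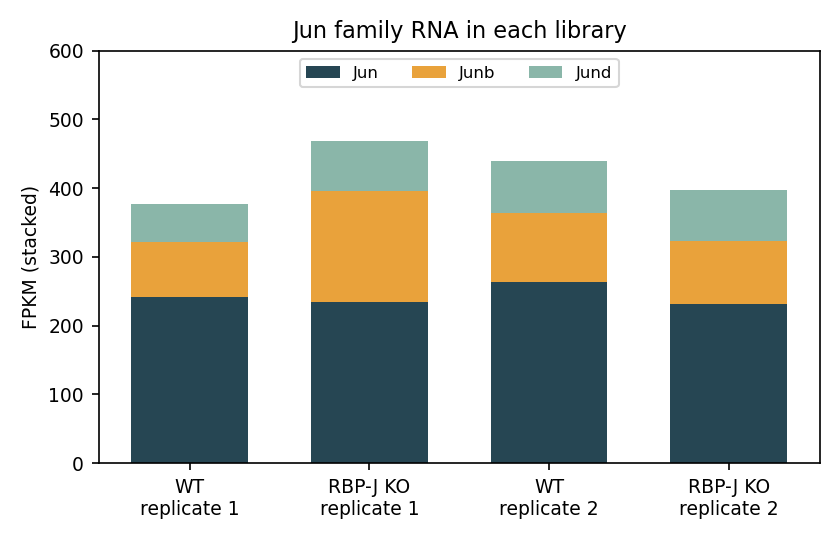
Stacked FPKM of Jun, Junb and Jund in each of the 4 libraries, 1 bar per library. The Jun segment lies between 231 and 263 FPKM in every library, while the Junb segment is tallest in RBP-J KO replicate 1, at 161 FPKM.

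The Fos partner in the set, Fosb, was close to the lower end of the tables. It was at 1.37 FPKM in WT replicate 1 and listed at 0 in WT replicate 2 and in both RBP-J KO libraries. With a mean under 1 FPKM it was not tested. Fos itself is not one of the 10 and was picked with its values known. It measured 281 (WT) against 291 FPKM (RBP-J KO) in pair 1, and 43.6 against 46.4 FPKM in pair 2. Its values therefore differed by replicate number and hardly by genotype, with a log2 difference of 0.07 between RBP-J KO and WT.

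Atf3, an ATF-family partner of Jun proteins that restrains inflammatory genes in macrophages, had the highest level of the 10 genes in 3 of 4 libraries and opposite differences in the pairs. It measured 355 FPKM (WT) against 551 FPKM (RBP-J KO) in pair 1. In pair 2 the values were 302 FPKM (WT) against 169 FPKM (RBP-J KO). The 2 WT libraries lay between the 2 RBP-J KO libraries, which were the highest and the lowest of the 4. RBP-J KO was 1.55-fold higher in pair 1 and 1.78-fold lower in pair 2, a pattern of at least 1.5-fold in opposite directions that 0.751% of genes tested had. The mean was 328 ± 37.3 FPKM for WT and 360 ± 270.1 FPKM for RBP-J KO (SD, n = 2), and the log2 difference of -0.10 (SE 0.59, limma adjusted p = 0.999) has a 95% interval from -1.67 to 1.48. Its sign rested on single libraries, at 0.75 without RBP-J KO replicate 2, 0.02 without WT replicate 1 and -0.95 without RBP-J KO replicate 1. Summed neutrophil markers were 7088 against 8434 FPKM within pair 1 and 361 against 1173 FPKM within pair 2. These sums exceeded WT in RBP-J KO in each pair, as did 8 of the 11 single markers. The rest were below WT in pair 1 and above it in pair 2. The part of these markers in the Atf3 values was not tested.

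**Figure D3:**
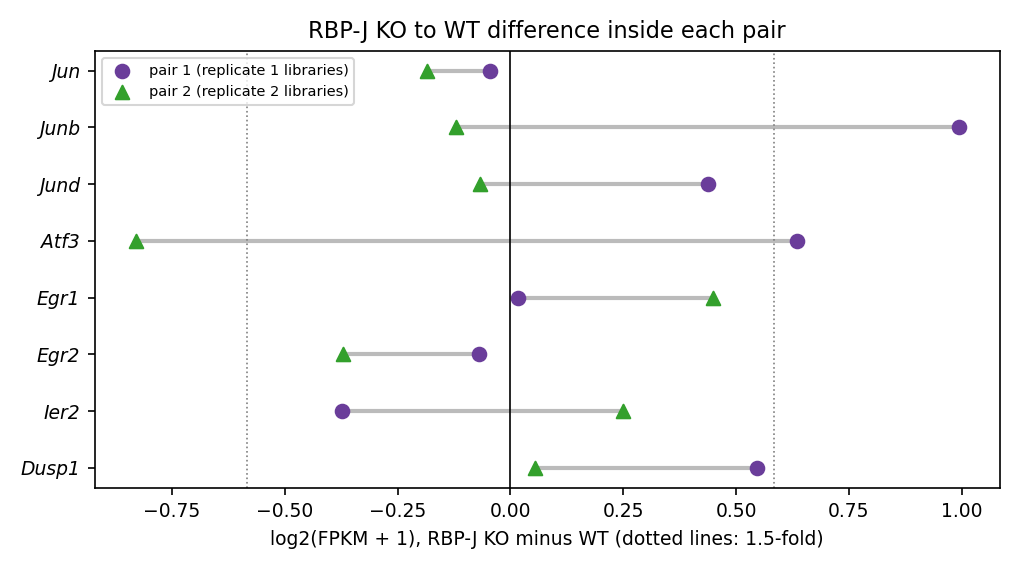
Difference RBP-J KO minus WT in log2(FPKM + 1) for the 8 measured genes, in pair 1 (purple circles) and pair 2 (green triangles), with dotted lines at 1.5-fold. Only Junb and Atf3 pass a dotted line, Junb in pair 1 and Atf3 in both pairs on opposite sides.

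The Egr genes were low. Egr1, the best known factor of this family and a target of MAP kinase signals, measured 3.06 (WT) against 3.11 FPKM (RBP-J KO) in pair 1, and 0.59 against 1.17 FPKM in pair 2. In each library it stood within the lowest 14% of genes above 0, from a percentile of 2.48 to 13.9. Its genotype groups overlapped, with a log2 difference of 0.23 (SE 0.69, limma adjusted p = 0.999). The difference turned to -0.44 without WT replicate 2 and to -0.23 without RBP-J KO replicate 1, fits with unequal replicate numbers in the groups. Inside pair 1 its difference was 0.02, and -0.04 under quantile normalization.

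Egr2, a factor of myeloid and Schwann cell differentiation, was the most abundant Egr RNA. It measured 8.66 (WT) against 8.21 FPKM (RBP-J KO) in pair 1, and 6.41 against 4.73 FPKM in pair 2, below WT in each pair, though by less than 1.5-fold. Its groups overlapped, and limma gave a log2 difference of -0.22 (SE 0.39, adjusted p = 0.999). Without RBP-J KO replicate 2 it was 0.12, in a fit with unequal replicate numbers in the groups. Egr2 supplied between 72.5% and 91.6% of the summed Egr1, Egr2 and Egr3 FPKM. Egr3 was listed at 0 in all 4 libraries, and so was Egr4, the remaining Egr gene, which is not one of the 10 and was picked with its values known.

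Ier2, a nuclear protein named for its early induction, was at 52.3 and 53.3 FPKM in WT replicates 1 and 2, almost the same value. In RBP-J KO it was at 40.1 FPKM in replicate 1 and 63.5 FPKM in replicate 2, on either side of the WT values. The mean was 52.8 ± 0.71 FPKM for WT and 51.8 ± 16.5 FPKM for RBP-J KO (SD, n = 2), with a log2 difference of -0.06 (SE 0.29, limma adjusted p = 0.999). Without RBP-J KO replicate 1 it was 0.26, and the pairs had opposite signs.

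Dusp1, the MAP kinase phosphatase of the set, varied more by replicate number than by genotype. It measured 122 FPKM (WT) against 179 FPKM (RBP-J KO) in pair 1, and 26.1 against 27.1 FPKM in pair 2. Both replicate 1 libraries were far above both replicate 2 libraries, by 4.56-fold in WT and 6.41-fold in RBP-J KO. RBP-J KO exceeded WT by 1.46-fold in pair 1 and by 1.04-fold in pair 2. The log2 difference was 0.30 (SE 1.16, 95% interval -2.79 to 3.39, limma adjusted p = 0.999), the widest interval among the 8 genes, and it turned to -1.04 without RBP-J KO replicate 1 and to -0.79 without WT replicate 2.

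The gap between replicate numbers was wider than that between genotypes for 6 of the 8 measured genes, Jun and Junb being the exceptions, against 61% of all genes tested. On the FPKM + 1 scale, a level at least 2-fold higher in replicate 1 in both genotypes was found for Dusp1 alone among the 8, and for 4.57% of genes tested, with 1.7% at least 2-fold lower. Egr1 was 2.55-fold higher in WT and 1.89-fold in RBP-J KO on that scale, and its FPKM values without the added 1, given above, lie more than 2-fold apart in both genotypes. Atf3 was 3.24-fold higher in replicate 1 in RBP-J KO and 1.17-fold in WT. Among related genes picked with their values known, Fos was 6.32-fold and 6.16-fold higher in replicate 1 in WT and RBP-J KO, the AP-1 gene Fosl2 2.58-fold and 2.02-fold, and the phosphatase Dusp4 2.56-fold and 2.43-fold. Most related genes did not reach 2-fold in both genotypes. The counts were 2 of 11 other AP-1, 2 of 26 other immediate early and 3 of 10 other dual-specificity phosphatase genes, with 0 at least 2-fold lower. Neutrophil marker genes were higher in replicate 1 too, by at least 2-fold in both genotypes for 10 of 11 measured. So were 4 of 4 stroma and endothelium, 3 of 4 B cell, 2 of 2 erythroid, 2 of 3 osteoclast and 2 of 3 mast cell markers. Among macrophage, dendritic cell, and T and NK cell markers, the counts were 1 of 9, 1 of 5 and 0 of 1. S100a8, a neutrophil calcium-binding protein, measured 2473 against 2971 FPKM for replicate 1 and 69.6 against 270 FPKM for replicate 2. The part of these markers in the levels of Dusp1, Egr1 and Fos was not tested, and sex, table layout and replicate number cannot be told apart here.

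**Figure D4:**
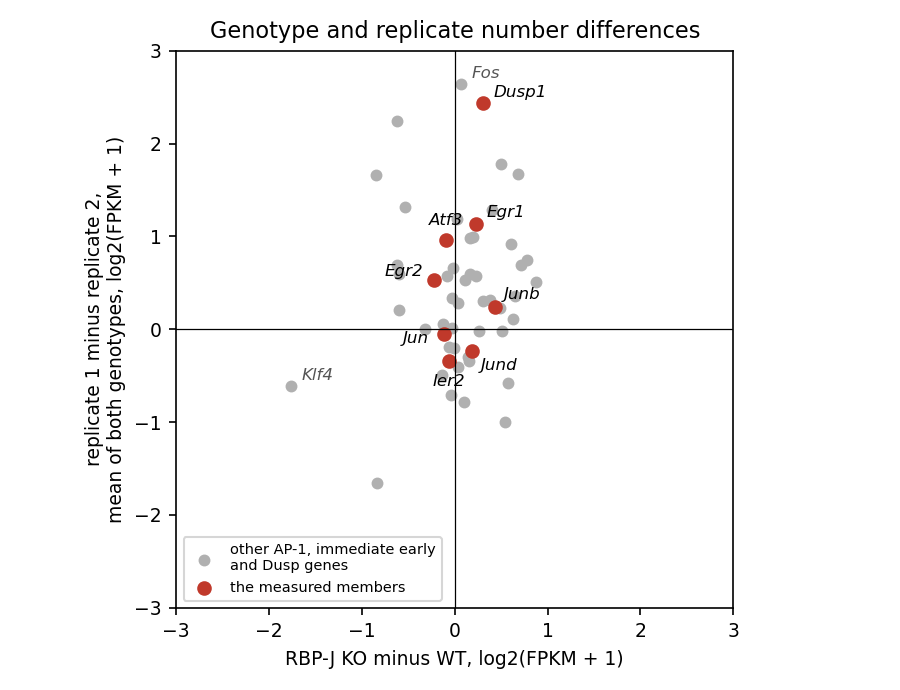
Each point is a gene, with the RBP-J KO minus WT difference on the horizontal axis and the replicate 1 minus replicate 2 difference, averaged over both genotypes, on the vertical axis, both in log2(FPKM + 1). Red points are the 8 measured genes and grey points other AP-1, immediate early and dual-specificity phosphatase genes; Dusp1 and Fos lie far up near the vertical line, and Klf4 lies far left.

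Other genes of the same pathway showed mostly small differences between genotypes. Of 11 measured genes in the remaining AP-1 family, 0 passed the adjusted test with limma and 0 had an unadjusted p under 0.05. In both pairs 5 were higher and 1 lower (median log2 difference 0.10, against -0.05 over all genes tested), where 25.1% of all genes tested were higher and 34.1% lower. The counts were 7 and 1 under upper-quartile scaling, and 6 and 1 under quantile normalization. Batf2 and Batf3, basic leucine zipper partners of Jun proteins, were higher in RBP-J KO in both pairs. Batf2 measured 22.9 (WT) against 45 FPKM (RBP-J KO) in pair 1, and 21.9 against 28.1 FPKM in pair 2. Batf3, a factor of dendritic cell development, measured 6.44 against 10.2 FPKM within pair 1 and 10.3 against 15.4 FPKM within pair 2. Summed dendritic cell markers came to 29.5 against 138 FPKM within pair 1 and 42.4 against 25.1 FPKM within pair 2, and their part in the Batf3 values was not tested. Batf measured 10.2 against 24.8 FPKM within pair 1 and 34.5 against 31.7 FPKM within pair 2, and Mafk, a small Maf protein, exceeded WT by 1.36-fold and 1.06-fold in pairs 1 and 2.

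Among 26 other measured immediate early genes, 8 were higher and 6 lower in both pairs (median log2 difference 0.07). The counts were 9 and 6 under upper-quartile scaling, and 9 and 5 under quantile normalization. Of the 26, 0 passed the adjusted test and 1 had an unadjusted p under 0.05. That gene was Klf4, a Krüppel-like factor of monocyte differentiation. It measured 13.2 and 27.2 FPKM for WT replicates 1 and 2, and 4.45 and 5.39 FPKM for the same replicates of RBP-J KO, so that the groups did not overlap (log2 difference -1.76, SE 0.43, limma adjusted p = 0.726). Ier5, a relative of Ier2, measured 146 and 130 FPKM for WT replicates 1 and 2, and 214 and 174 FPKM for those of RBP-J KO, higher by 1.47-fold and 1.33-fold in the pairs where Ier2 had opposite signs. Btg2, an antiproliferative protein, measured 34.4 against 67 FPKM within pair 1 and 39.9 against 49.8 FPKM within pair 2. Sik1, a salt-inducible kinase, was 1.18-fold and 1.71-fold higher.

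Of 10 measured dual-specificity phosphatases other than Dusp1, 0 passed the adjusted test, 1 had an unadjusted p under 0.05, and 4 were higher and 2 lower in both pairs (median log2 difference 0.15). Upper-quartile scaling and quantile normalization each gave 5 higher and 2 lower. Dusp3 measured 355 and 314 FPKM for WT replicates 1 and 2, and 238 and 202 FPKM for those of RBP-J KO, lower in both pairs with no overlap (log2 difference -0.60, SE 0.19, limma adjusted p = 0.999). Dusp2, an inducible phosphatase of immune cells, measured 5.32 and 3.29 FPKM for WT replicates 1 and 2, and 10.2 and 7.15 FPKM for those of RBP-J KO, higher by 1.77-fold and 1.90-fold. Dusp4 measured 305 against 205 FPKM within pair 1 and 118 against 83.7 FPKM within pair 2, and Dusp5 exceeded WT by 1.02-fold and 2.87-fold in pairs 1 and 2.

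Upstream, 18 measured MAP kinases and their activators had 7 genes higher and 6 lower in both pairs (9 and 4 under upper-quartile scaling and under quantile normalization; median log2 difference -0.02, which turned to 0.03 and 0.02 under these scalings), with 0 past the adjusted test and 1 at an unadjusted p under 0.05. That gene, Mapk11, which encodes p38 beta, measured 14.5 and 21.2 FPKM for WT replicates 1 and 2, and 3.73 and 4.71 FPKM for those of RBP-J KO (log2 difference -1.84, SE 0.34, limma adjusted p = 0.548). Map3k8, the kinase Tpl2 that activates ERK after Toll-like receptor signals, exceeded WT by 2.15-fold and 1.28-fold in pairs 1 and 2. Map2k6 was 1.38-fold and 1.66-fold lower, and Map2k3 1.29-fold and 1.11-fold lower. A list of the Nab corepressors of Egr proteins, the serum response factor group, Creb1 and Crem (10 measured) had 1 gene higher and 6 lower in both pairs (median -0.17). Over all genes tested, 25.1% were higher and 34.1% lower. The gene higher was Creb1, and Crem was among the 6 lower. Upper-quartile scaling gave 2 higher and 6 lower, and quantile normalization 1 and 6. In this list 0 genes had an unadjusted p under 0.05. Nab2 measured 62 against 39.2 FPKM within pair 1 and 62 against 62.3 FPKM within pair 2, and Mkl1, a coactivator of serum response factor, was 1.06-fold and 1.32-fold lower in the pairs. Crem and Elk1, which act at cAMP response elements and beside serum response factor respectively, were likewise below WT in each pair, by less than 1.5-fold.

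Of 8 measured genes of ERK feedback, 0 were higher and 5 lower in both pairs (median log2 difference -0.23), where 25.1% of all genes tested were higher and 34.1% lower, and 0 had an unadjusted p under 0.05. The counts were 0 and 4 under upper-quartile scaling, and 1 and 4 under quantile normalization. Phlda1 was 1.96-fold lower in pair 1 and 1.21-fold lower in pair 2, the ERK inhibitor Spred1 was 1.26-fold and 1.09-fold lower, and Dusp4, also in this list, is given above. Etv5, an ERK-induced ETS factor, measured 283 against 276 FPKM within pair 1 and 226 against 314 FPKM within pair 2. The heat shock list (9 measured) had 0 higher and 4 lower in both pairs (3 lower under upper-quartile scaling and 2 under quantile normalization), with medians of -0.39 in pair 1 and 0.04 in pair 2 and 0 genes at an unadjusted p under 0.05. The inducible heat shock genes Hspa1a and Hspa1b were between 0.71 and 3.8 FPKM in every library. Hspa5, an endoplasmic reticulum chaperone, measured 3555 against 1924 FPKM within pair 1 and 3207 against 2907 FPKM within pair 2, and Dnaja1, a cochaperone, measured 79.5 against 60.3 FPKM within pair 1 and 68.6 against 71.2 FPKM within pair 2.

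The median profile of the 8 measured genes, each centred on its own mean, was 0.09 for WT and 0.40 for RBP-J KO among the replicate 1 libraries, and -0.06 for WT and -0.26 for RBP-J KO among those of replicate 2. The single genes lay at Euclidean distances from 0.33 (Egr2) to 2.04 (Dusp1) from this profile over the 4 libraries, a measure that grows with the size of a gene's swing as well as with a difference in its shape. Of 9950 other genes averaging 10 FPKM or more, the 5 nearest were Asph, Gpbp1l1, Slc25a20, Tank and Clcn4-2, at distances between 0.092 and 0.108. Tank, an adaptor of TRAF proteins, measured 215 (WT) against 261 FPKM (RBP-J KO) in pair 1, and 182 against 160.5 FPKM in pair 2.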

How the data were processed

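The authors deposited 1 table per library of FPKM values; the headers name no unit. The submitters' processing notes name TopHat, Cufflinks and the mouse build mm9, and no source used here gives versions, annotation or scaling. Replicate 2 tables list 27583 transcripts, summed here per symbol (each of the 10 genes has 1), and 25 symbols turned into dates were restored. Ratios of low values between libraries formed no steps of whole reads, so the depth behind each value is unknown and no interval from counting is given.

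A mean of 1 FPKM or more over the 4 libraries was required. The 11851 genes left were fitted with limma 3.58.1 in R 4.3.3 on log2(FPKM + 1), with group as the only term, a variance trend and two-sided Benjamini-Hochberg adjustment. SE and 95% intervals are from this model. Figures used Python 3.11.15 with matplotlib 3.10.9. No label ties libraries to separate mice. By Xist and Ddx3y the 2 libraries of each genotype differ in sex, so they cannot be repeats of the same mouse. The p-values measure a spread between libraries in which sex, table layout and replicate number lie together, and which may be partly technical.

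The 10 genes and all lists were chosen with earlier results of these data known. By rule, the text names the 10 genes, Rbpj, up to 4 genes with the smallest p in each other pathway list, Csf1r, Cd68, S100a8, Cd79a, Col1a1, Xist, Ddx3y, and the 5 genes nearest in profile. Outside this rule, Fos, Fosl2, Egr4, Creb1, Cd14, Lyz2, Itgax and the markers listed at 0 are named with their values known. Alternatives covered the pseudocount, filter, scaling, transcript choice, variance trend, replicate block and each library left out.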

Additional observations from a re-analysis of the deposited data

Results flagged for a closer look

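Atf3 had opposite differences in the replicate pairs, whose libraries differ in sex by Xist and Ddx3y. RBP-J KO minus WT was 0.64 in pair 1 and -0.83 in pair 2 on the log2(FPKM + 1) scale, a gap of 1.47 between the pairs. Each pair holds 1 library per genotype, so the difference between the pairs was not tested. Under upper-quartile scaling the values were 0.66 and -0.77, and under quantile normalization 0.66 and -0.77.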

How the results depend on the processing

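Leaving out 1 library at a time gave a median log2 difference of the measured genes from -0.18 to 0.44 (0.06 with all 4), and ranges of -0.057 to 0.43 for Jund, -0.95 to 0.75 for Atf3, -0.44 to 0.91 for Egr1, -0.56 to 0.12 for Egr2, -0.39 to 0.26 for Ier2 and -1.04 to 1.64 for Dusp1, all of which include a change of direction. Jun stayed between -0.18 and -0.05 and Junb between 0.04 and 0.84. These fits hold no replicate term, so leaving out 1 library also makes the replicate numbers unequal between the groups. Dusp1, Egr1 and Egr2 changed direction here, but on the unscaled values each kept the same direction in both pairs. In the other 71 results of single genes under the alternatives the direction was kept in 71. The lowest adjusted p of any of the 8 genes was 0.604 (Dusp1 with the replicate block). Genes at least 1.5-fold apart in both pairs numbered 887, and 475 with a pseudocount of 10. Without a filter on low values 8 of 22026 genes passed the adjusted test, none of the 10; the cause was not tested. Leaving a group with 1 library assumes that it varies like the other group. With the replicate number as a block, limma called 0 genes and 0 of the 8, with 1557 genes and 0 of the 8 at an unadjusted p under 0.05. The deviations of same-numbered libraries from their group means correlated across 11851 genes (r = 0.639), but no label pairs them. The depth of the libraries, and so the precision of low genes such as Egr1 and Fosb, is unknown.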
